A study of Mus musculus with 25 samples.

Results

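The joins described here are the translocation junctions that aligned to the polyA region of a reporter cassette in mouse embryonic stem cells. Alignment alone does not place the prey in the cassette, since other DNA may hold the same sequence. Where reads could be followed past the edges described below, few continued in the adjacent cassette. The region was chosen by position as the last 312 bp of the cassette reference, on both strands, and held 4270 of 11867 joins. The remaining 7597 joins lay in the cassette body, which is all that precedes the region and carries the Ter array. Coordinates are 1-based positions in the cassette, not positions of a genome build. The region contains a segment of the simian virus 40 (SV40) polyA signal at 3767 to 3795 and a segment of the bovine growth hormone (BGH) polyA signal, 45 bp long, that ends at 3900. The segment bounds were taken as given and were not matched to a reference sequence here.

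Joins were read by LAM-HTGTS, a translocation-sequencing assay based on linear amplification, in which a Cas9 cut is the bait and whatever DNA becomes joined to the bait end is the prey. The labels place the cut 30 kb from a cassette of 4 kb in ROSA26, and DNA was taken 48 h after transfection. Tus was delivered to BRCA1del/exon11 cells with siBLM, siBRCA1, siFANCM or siLuciferase (3 libraries each). It was also delivered to BRCA1flox/exon11 cells with siFANCM (3 libraries) or with siBLM, siBRCA1 or siLuciferase (2 libraries each). I-SceI and the control that the labels call EV were delivered only to BRCA1del/exon11 cells with siFANCM (2 libraries each). All 10 groups received the bait Cas9 and a small interfering RNA (siRNA), so siLuciferase is a control for the siRNA and EV for Tus and I-SceI, and no group lacked the bait cut. The genotypes are called BRCA1del and BRCA1flox below. The sources used here do not say whether a cell line was a single clone or how far each siRNA lowered its target. Cells were grown on mouse embryonic fibroblast feeders.

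A polyA signal directs cleavage of the nascent RNA and addition of its poly(A) tail, and the hexamer AATAAA is the core of most such signals. The SV40 and BGH signals are standard ends of transcription units in mammalian expression constructs. Tus is a bacterial protein that blocks replication forks where it binds Ter, I-SceI is a homing endonuclease that cuts its own site in the cassette, BLM is a RecQ helicase, FANCM a DNA translocase of stalled forks, and BRCA1 a mediator of homologous recombination. Neither the Ter elements nor the I-SceI site lies in the polyA region. A broken end that is joined to other DNA may first lose bases, may share a few bases with its partner (microhomology) or may gain bases that belong to neither (an insertion), and a join with none of these bases is blunt.

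Every read began in the bait, and the last bases before the cut are shown because microhomology and bait-end loss are both counted from them. The cut was taken as the end of the bait sequence shared by the reads, where the most common next base fell under a 60% share. The 60 bases that end at this inferred cut, with the last 10 in capitals, were as follows.
bait: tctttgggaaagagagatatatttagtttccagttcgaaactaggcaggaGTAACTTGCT
The labels place this bait at ROSA26, a locus on mouse chromosome 6, and also name RAG1 primers. The sequence was rebuilt from the reads and was not matched to a genome here. A bait-end loss of 0 bp means that the final T was present in the read. Bases shared by bait and prey were counted as kept by the bait, so some of them may have come from the prey.

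Libraries held 148 to 933 joins, of which 32 to 290 lay in the polyA region (median 188). Each library is 1 sequencing run of a group. There were 4 runs, called A to D, and run C was the only run with all 10 groups. The smallest polyA-region numbers were in run D, with 32 in Tus BRCA1flox siLuciferase, 51 in Tus BRCA1del siFANCM and 55 in Tus BRCA1flox siFANCM. In EV the polyA region held 186 of 188 joins in run A and 277 of 280 in run C. Nothing in the labels says that replicates came from separate cultures, so the spread between libraries may be technical. Confidence intervals cover counting error only, since amplified reads are not independent molecules. Run C and run D of the same group shared their leading 5 bases in 8 of 8 groups and had 0 reads in common.

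Joins in the polyA region were not spread evenly but piled up at 4 positions, with the same position leading in every group. A join is called leftward where the prey runs from the junction toward position 1 (minus strand, 2439 joins) and rightward where it runs toward the far end of the cassette (plus strand, 1831 joins). The leading position was 3910 on the minus strand, with 727 joins. On the same strand 3843 had 322 joins, and on the plus strand 3728 had 356 and 3855 had 300. These 4 pairs of position and strand held 1705 joins, or 39.9% of the region, among 276 pairs in use. Each was present in all 25 libraries, and together they made up 31.3% of a library at the lowest, 39.2% at the median and 47.3% at the highest. Position 3910 was the most used position in all 10 groups, from 14.4% of the joins in Tus BRCA1del siBLM to 22.4% in I-SceI. It held 15.5% of the 502 joins in Tus BRCA1del siFANCM and 22.4% of 559 in I-SceI, against 19.4% of 463 in EV. These differences were not tested. By label Tus BRCA1del siFANCM differs from EV by Tus alone, but it also had a library in run D, which EV did not.

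The positions next in rank held far fewer joins. On the minus strand they were 3882 (51 joins in 20 libraries), 3818 (35 joins in 19 libraries) and 3840 (33 joins in 17 libraries). On the plus strand they were 3727 (40 joins in 19 libraries), 3738 (25 joins in 16 libraries) and 3729 (24 joins in 17 libraries). Each of the 6 was used in 9 or 10 groups.

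**Figure D1:**
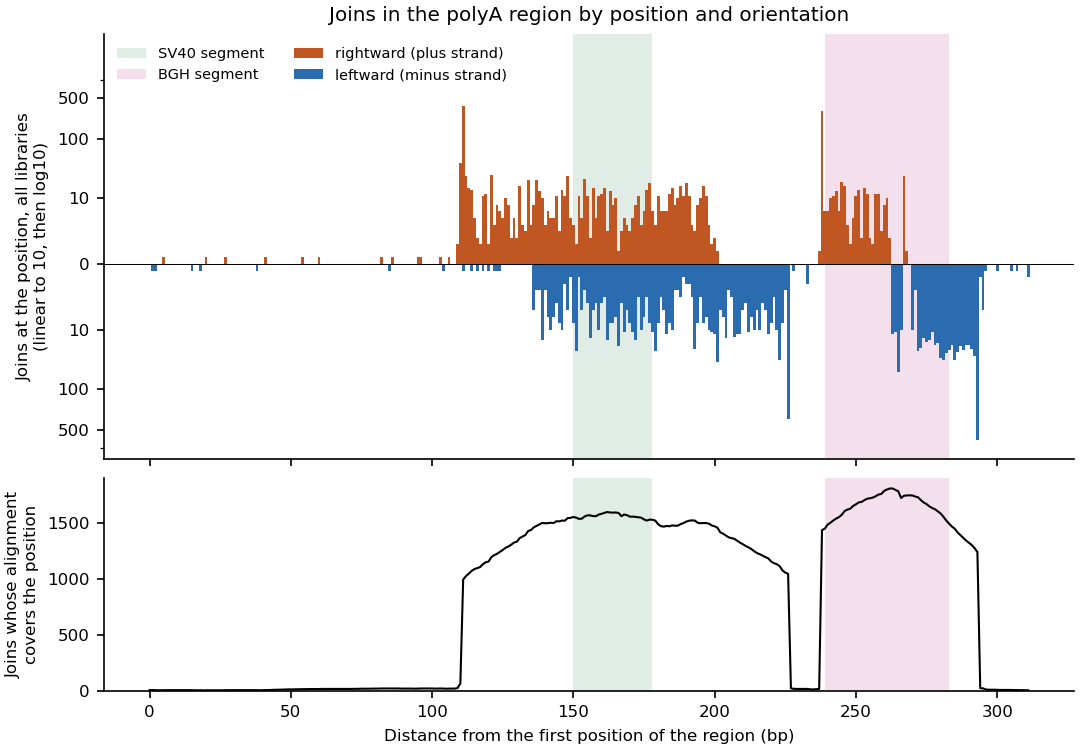
Joins by position in the polyA region, summed over the 25 libraries, plotted against the distance in bp from the first position of the region. The upper panel gives the joins per position, rightward above and leftward below the zero line on an axis that is linear to 10 and then log10, and the lower panel the number of joins whose alignment covers each position. Shaded bands mark the SV40 and BGH segments. The 4 tall bars stand at the edges of 2 blocks, one around each band, and coverage drops from between 993 and 1804 inside the blocks to at most 66 outside.

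The 4 leading positions are the edges of 2 blocks. Block 1 ran from 3728 to 3843 (116 bp) around the SV40 segment, and block 2 from 3855 to 3910 (56 bp) around the BGH segment. Aligned prey covered every position of block 1 in 993 to 1594 joins and every position of block 2 in 1238 to 1804 joins. Coverage was 4 to 66 before block 1, 13 to 22 in the 11 bp between the blocks and 5 to 24 after block 2. Joins were rightward at 3728 and 3855, the left edges, and leftward at 3843 and 3910, the right edges, so that the prey ran into its block from each of them. Block 1 held 2367 joins, block 2 held 1820, and 83 lay outside both.

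The blocks differ in base composition. Block 1 was 30.2% G and C and block 2 was 64.3%. Block 1 held AATAAA at 3759 and 3788 on the plus strand and once on the minus strand, at 3734, whereas block 2 did not hold these letters on either strand. On either strand AATAAA occurs in 12% of the 3501 windows of 116 bp in the cassette body and in 6.09% of its 3561 windows of 56 bp.

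The block edges limited the far end of the prey as well as its near end. The prey entered a block within 1 bp of an edge in 1813 joins (42.5%) and its alignment ended within 1 bp of an edge in 2904 (68.0%). In all, 3599 joins (84.3%) touched an edge at one end or the other. The alignment filled block 1 from edge to edge in 218 joins and block 2 in 900. By edge, 420 joins entered and 580 ended at 3728, 326 entered and 710 ended at 3843, 310 entered and 1121 ended at 3855, and 757 entered and 493 ended at 3910. The median aligned length was 56 bp in the region, against 136 bp in the cassette body.

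Where reads continued past an edge, they carried the same bases again and again, and these differed from the cassette next to that edge. A read was followed past an edge where it had at least 8 bp there, between the block and the bait or beyond the far end of the alignment, which 3259 joins did. The recurrent flank of an edge was built from the most common base of these same reads at each step. In 3139 of them (96.3%, Wilson 95% interval 95.6% to 96.9%) those 8 bp matched a recurrent flank with at most 1 mismatch. That share describes how uniform the reads were and is not an independent test of the flank. In 30 they matched the adjacent cassette, and in 90 neither. The recurrent flanks could be followed for 163 bp from 3728, 152 bp from 3843, 51 bp from 3855 and 126 bp from 3910. They differed from the adjacent cassette at 8, 7, 6 and 6 of their first 8 bases. That comparison covered only the cassette next to each edge. The flank was present at all 4 edges in all 25 libraries. By library its share was 84.4% to 100%, with the lowest in run C of Tus BRCA1flox siBLM, where 8 of 122 such reads matched the cassette. These shares count a read that carried the flank at any edge. Taken edge by edge, the share was 92.2% at 3728, 95.6% at 3843, 97.4% at 3855 and 94.6% at 3910. At 3728 it was 30 of 44 reads (68.2%) in Tus BRCA1flox siBLM and 27 of 33 (81.8%) in Tus BRCA1flox siLuciferase.

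The flank was found without Tus or I-SceI as well as with them. It made up 97.8% of the 416 such reads in Tus BRCA1del siFANCM and 95.7% of 423 in I-SceI, against 96.9% of 360 in EV (interval 94.6% to 98.3%). In Tus BRCA1del siBRCA1 0 of 413 reads matched the cassette past an edge, which allows up to 0.726%. In EV 0 of 360 did, which allows up to 0.833%. What DNA the flanks come from was not tested. For a read that ends within a block, the cassette and other DNA holding the same block cannot be told apart.

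**Figure D2:**
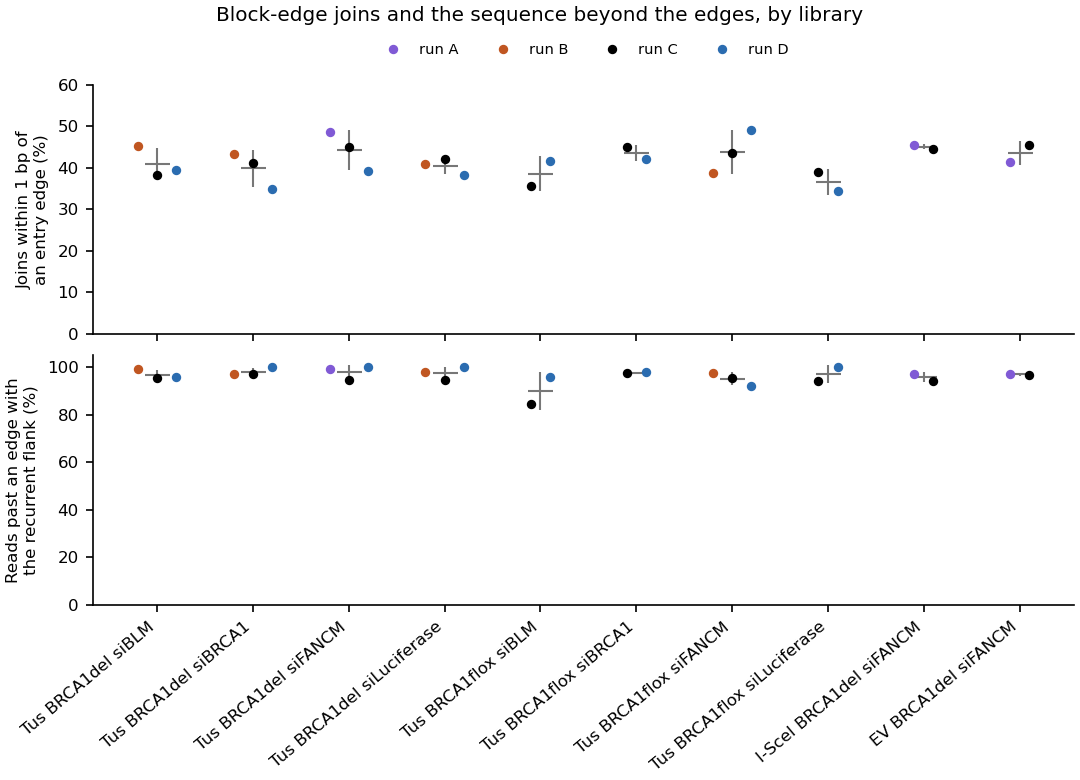
The percent of polyA-region joins that entered a block within 1 bp of an edge (upper panel) and the percent of reads reaching 8 bp past an edge that carried the recurrent flank there (lower panel). Each point is 1 library, coloured by sequencing run, and grey bars are group means with SD over libraries. Entry-edge shares lie between 34.4% and 49.1%, and flank shares between 84.4% and 100%, with EV within the range of the other groups.

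Prey that did extend into cassette sequence outside the blocks was rare. Only 47 joins (1.10%) had at least 8 aligned bp outside them, 32 leftward and 15 rightward. They comprised 14 of the 559 joins in I-SceI (2.50%), 12 of the 262 in Tus BRCA1flox siBLM (4.58%) and 7 of the 449 in Tus BRCA1flox siFANCM (1.56%). The other 6 Tus groups had 1 to 3 such joins each. EV had 0 of 463, which allows up to 0.648%. Of the 47 joins, 25 (53.2%) had microhomology of 2 bp or more and 8 (17%) an insertion. The difference between groups in these joins was not tested.

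On the deposited alignment inserted bases were the most frequent feature of the region, and they were concentrated at the block edges. In the region as a whole 53.1% of the 4233 joins with structure called had an insertion, with a median of 14 bp, and 32.8% had an insertion of 10 bp or more. Among joins entering at an edge the share was 90.8% with a median of 17 bp, and among the 2418 joins inside the blocks it was 25.2% with a median of 5 bp. At the leading positions it was 95% at 3910, 92.8% at 3843, 97.2% at 3728 and 94.3% at 3855. Position 3727, next to 3728, stood apart from them, with an insertion in 5.00% of its 40 joins, microhomology of 2 bp or more in 72.5% and a median microhomology of 7 bp.

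Most of these edge insertions held the recurrent flank. When the prey part of an edge join was extended through the flank, the share with an insertion was 20.3% and the share with microhomology of 2 bp or more was 29.1%. On the deposited alignment that microhomology share was 3.84%. The extended shares were close to those inside the blocks, 25.2% and 27.1%. Over the whole region, extension left 23.2% of joins with an insertion, 28.1% with microhomology of 2 bp or more and 26.1% blunt. Insertions were then no longer the most frequent feature. With the flank counted, the insertion share by edge was 20.2% at 3728, 19.4% at 3843, 16.6% at 3855 and 22.3% at 3910. The longest insertions on the deposited alignment were 142 bp in block 1 and 118 bp in block 2.

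Inside the blocks, away from the edges, joins were scattered. The 2418 joins used 237 pairs of position and strand, with a median of 9 joins per pair in use and 51 at the most. All positions of the blocks make 344 pairs, but these include the entry edges and pairs too close to the far edge for the shortest alignment. The shortest alignment in the region was 26 bp, and the last stretch before the far edge of a block held few entries. Of the joins inside, 24.5% were blunt, 23.1% had microhomology of 1 bp and 27.1% microhomology of 2 bp or more, with 6 bp the longest. By group, insertions inside the blocks ran from 22.6% to 30.4%, microhomology of 2 bp or more from 25% to 29.6% and blunt joins from 21.1% to 27.8%. EV lay within these ranges at 29.1%, 26% and 23.6%.

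Several pairs of prey position and bait end recurred between libraries. The full bait was joined to minus-strand position 3768 in 21 joins from 14 libraries, with the shared letters TTGCT. It was joined to minus-strand 3796 in 18 joins from 15 libraries, sharing TGCT, and to minus-strand 3902 in 17 joins from 15 libraries and all 10 groups, sharing GCT. These letters are the end of the bait shown above. Plus-strand 3807 recurred in 15 joins from 13 libraries with a bait shortened by 1 bp and the shared letters TGC. Plus-strand 3754 recurred with the full bait in 13 joins from 11 libraries and shared only a T.

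**Figure D3:**
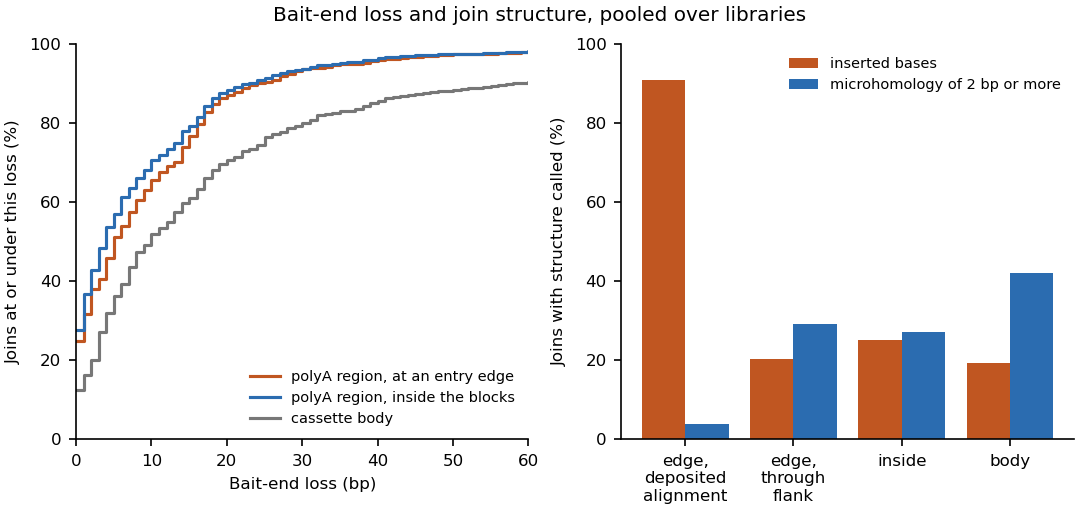
Left, the cumulative percent of joins at or under each bait-end loss in bp, for polyA-region joins at an entry edge, polyA-region joins inside the blocks and cassette-body joins. Right, the percent of joins with an insertion and with microhomology of 2 bp or more in the same classes, with edge joins shown on the deposited alignment and again with the prey extended through the recurrent flank. Values are pooled over libraries and carry no error bar. No loss at all is shown by 24.8% of edge joins, 27.7% of joins inside the blocks and 12.5% of body joins.

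The bait end was well preserved in joins to the polyA region. Its median loss was 4 bp, with quartiles of 0 and 14 bp. In 1116 of 4242 joins (26.3%) no base was lost, with bases shared with the prey counted as kept. The next most frequent losses were 1 bp (347 joins), 2 bp (262 joins) and 4 bp (227 joins). Loss of 10 bp or more was seen in 34.0% of joins, and of 30 bp or more in 6.81%. Edge joins and joins inside the blocks had medians of 5 and 4 bp. The longest loss was 125 bp, of a bait of 145 bp in the reads. Across groups the share with no loss was highest in Tus BRCA1flox siBLM, at 30.3%, and lowest in EV, at 23.2%.

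The SV40 and BGH segments themselves, which leave out the block edges, held a small part of the joins. The BGH segment held 592 joins (13.9%) and the SV40 segment 532 (12.5%). By library the BGH share was 6.25% at the lowest, 13.2% at the median and 22.7% at the highest, and the SV40 share 4.55%, 12.7% and 18.8%. In pooled joins the BGH segment had 42.2% rightward joins (interval 38.3% to 46.3%) and the SV40 segment 50% (interval 45.8% to 54.2%). These shares are not directly comparable, since the shortest alignment was 26 bp. The first part of the BGH segment, with less than that of block 2 to its left, held no leftward join. Its last part held no rightward join, whereas the SV40 segment held both orientations throughout. Insertions were found in 27.3% of BGH-segment and 25.2% of SV40-segment joins, microhomology of 2 bp or more in 28.2% and 23.9%, and no bait-end loss in 23.8% and 28.2%. The median loss was 4 bp in both.

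The blocks around these segments differed in orientation as well. In block 2 32.0% ± 7.2 of joins were rightward, against 51.3% ± 4.4 in block 1 (mean ± SD, n = 25 libraries), and block 2 was lower in 25 of 25 libraries. Entry at an edge accounted for 57.2% ± 5.6 of the joins in block 2 and 30.0% ± 4.7 of those in block 1, higher in block 2 in 25 of 25. Bait-end loss of 10 bp or more was found in 39% ± 7.1 of block 2 joins and 30.9% ± 5.8 of block 1 joins, higher in block 2 in 22 of 25. With the flank counted, insertions were found in 23.9% ± 6.6 of block 2 joins and 23.3% ± 4.8 of block 1 joins, higher in block 2 in 11 of 25. These block values are descriptions, since the blocks were drawn from the same joins.

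The next comparison set the polyA region against the cassette body of the same library. It used the 23 libraries with at least 10 body joins. Both EV libraries, with 2 and 3 body joins, were left out. Joins of the polyA region were more often rightward, more often carried an insertion, less often had microhomology and less often had lost 10 bp or more of the bait. All 4 differences passed at an adjusted p of 1e-05, the smallest that the 100000 resamples of the two-sided sign-flip permutation test can give, with Benjamini-Hochberg adjustment over the 4 measures.

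The rightward share was 35.4% at the lowest, 45.0% at the median and 50% at the highest in the polyA region, against 7.22%, 14.9% and 55.4% in the body. The mean was 43.7% ± 4.9 in the polyA region and 18% ± 12 in the body, a difference of 25.7 points. It was higher in the polyA region in 21 of 23 libraries. The exceptions were the 2 I-SceI libraries, with 37.6% and 35.7% rightward in the polyA region, against 51.9% and 55.4% in the body. Every Tus library thus had the higher share in the polyA region and both I-SceI libraries had it in the body. Orientation was read along the cassette reference. Since few followed reads continued in the adjacent cassette, a direction in the polyA region need not be a direction in the cassette itself.

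The share with an insertion was 52.3% ± 4.6 in the polyA region and 18.1% ± 5.0 in the body, a difference of 34.2 points, higher in 23 of 23 libraries. That size depends on the edge joins. Without joins at the block edges it was 6.75 points (adjusted p = 2e-05), and with the prey extended through the recurrent flank 5.29 points (adjusted p = 3e-05), each higher in 21 of 23 libraries by the same permutation test. Reads ran on past the aligned prey by at least 8 bp in 43.8% to 81.3% of polyA-region joins, against 1.86% to 13% of body joins, and more in the polyA region in 23 of 23 libraries.

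Microhomology of 2 bp or more was found in 19% ± 6.3 of polyA-region joins and 44.8% ± 11 of body joins, a difference of -25.8 points. The polyA region was lower in 23 of 23 libraries. In the I-SceI libraries the difference was -5.16 and -3.53 points, the smallest of all. With the prey extended through the flank the difference over all libraries was -15.5 points and without edge joins -15.6 points, each lower in 21 of 23 libraries. The lower share did not hold inside the blocks with I-SceI. There it was 28.0% of the pooled I-SceI joins, against 21.4% and 21.7% of body joins in the I-SceI libraries.

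Bait-end loss of 10 bp or more was found in 33.9% ± 4.2 of polyA-region joins and 51.0% ± 5.1 of body joins, a difference of -17.1 points. The polyA region was lower in 23 of 23 libraries, and the differences ran from -29.7 to -7.59 points. Pooled, the median loss was 4 bp in the polyA region and 10 bp in the body, and 26.3% and 12.5% of joins had no loss. Unlike the insertion share, this difference was not reduced without the joins at the block edges, where it was -19.1 points.

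**Figure D4:**
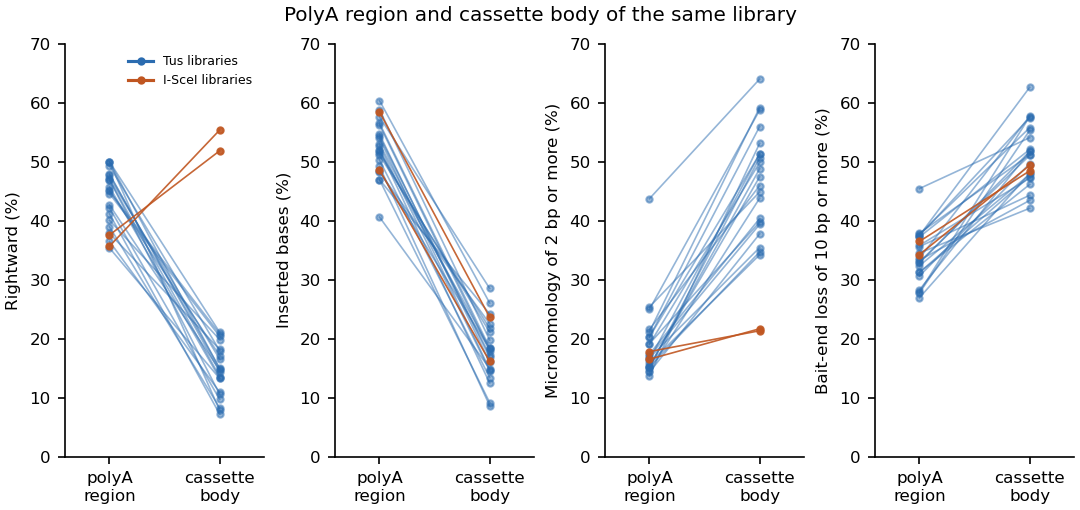
The percent of joins that were rightward, held an insertion, held microhomology of 2 bp or more and had lost 10 bp or more of the bait, in the polyA region (left points) and the cassette body (right points). Each line joins the 2 values of 1 library, for the 21 Tus and the 2 I-SceI libraries. The lines run downward to the body for insertions and upward for microhomology and bait-end loss in 23 of 23 libraries, and for the rightward share only the I-SceI lines run upward.

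Tus and I-SceI were then compared with EV, and with each other, in BRCA1del cells with siFANCM. The 5 measures were the shares of polyA-region joins that were rightward, lay in the BGH segment, held an insertion, held microhomology of 2 bp or more, or had lost 10 bp or more of the bait. The rightward share was 45.0%, 42.2% and 41.2% in Tus libraries, 37.6% and 35.7% in I-SceI libraries, and 43.5% and 40.1% in EV libraries. Tus overlapped EV, and both I-SceI libraries lay below both. The differences were 0.97 points for Tus minus EV (adjusted p = 0.70), -5.17 points for I-SceI minus EV (adjusted p = 0.833) and 6.14 points for Tus minus I-SceI (adjusted p = 0.50), by exact permutation of libraries, two-sided. These designs cannot go below an unadjusted p of 0.10 for Tus minus EV or Tus minus I-SceI, or 0.33 for I-SceI minus EV, so no difference here could pass. The order of the groups was not kept under other settings. Without edge joins Tus minus I-SceI was -2.17 points and Tus minus EV -4.82 points, and with each position, strand and bait end once per library they were -0.397 and -3.07 points.

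Insertions were found in 54.0%, 50.3% and 58.8% of joins in Tus libraries, 48.6% and 58.5% in I-SceI libraries, and 55.1% and 55.1% in EV libraries. The EV libraries lay inside the range of both others. Microhomology was found in 15.8%, 16.8% and 13.7% with Tus, 17.8% and 16.5% with I-SceI, and 16.2% and 16.7% with EV. Bait-end loss was found in 34.5%, 30.6% and 37.3% with Tus, 34.3% and 36.5% with I-SceI, and 36.8% and 38.4% with EV. The BGH segment held 13.3%, 11.6% and 11.8% with Tus, 13.1% and 13% with I-SceI, and 10.8% and 15.5% with EV. Bait-end loss in Tus minus EV differed by -3.44 points (unadjusted exact permutation p = 0.30).

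**Figure D5:**
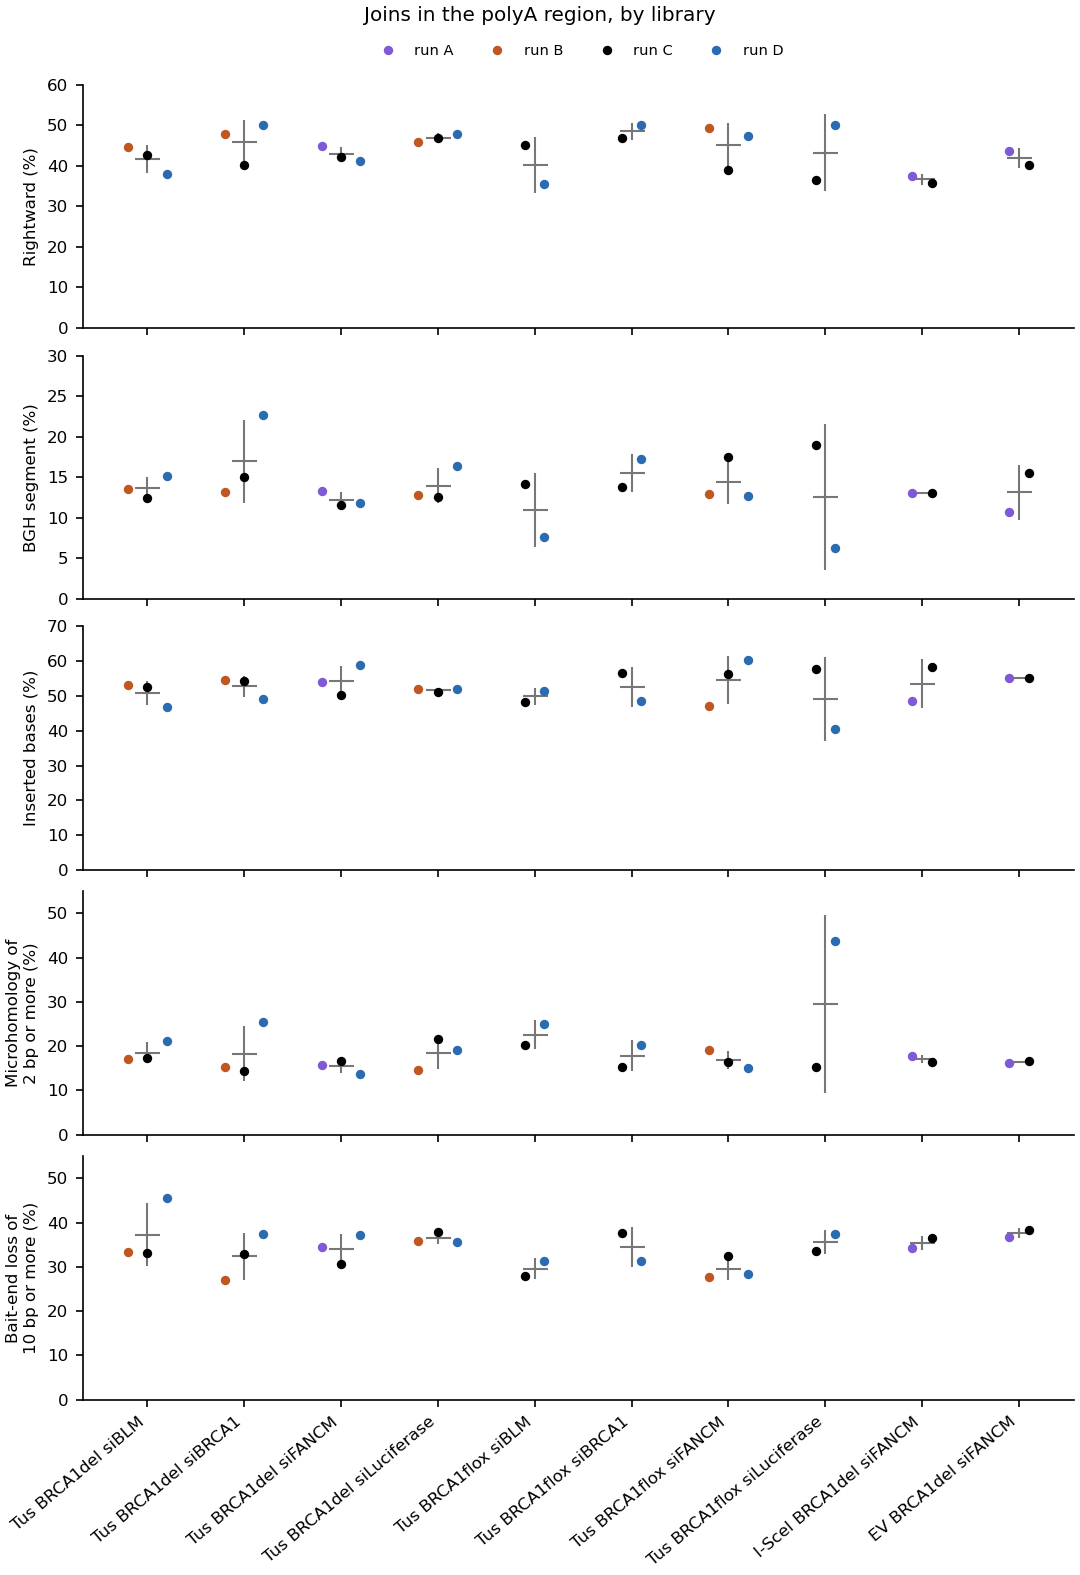
The 5 shares of the polyA-region joins by library: rightward joins, joins in the BGH segment, joins with inserted bases, joins with microhomology of 2 bp or more and joins with bait-end loss of 10 bp or more, all in percent. Points are libraries coloured by sequencing run, and grey bars are the group mean with SD. Libraries run from 35.4% to 50% for rightward joins, and the point that stands farthest from the others is the 43.8% microhomology of run D in Tus BRCA1flox siLuciferase, a library of 32 joins.

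BRCA1del was compared with BRCA1flox over the 21 Tus libraries, within each siRNA, and none of the 5 measures passed. The runs were not balanced between the genotypes. BRCA1flox with siBLM, siBRCA1 or siLuciferase had runs C and D only, whereas BRCA1del also had run A or B with each siRNA. Libraries were permuted across runs, here and in the siRNA comparisons below. The rightward share was 37.9% at the lowest, 44.8% at the median and 50% at the highest in BRCA1del, against 35.4%, 46.9% and 50% in BRCA1flox. Their means were 44.3% ± 3.6 (n = 12) and 44.3% ± 5.9 (n = 9), a difference of 0.04 points within siRNA (adjusted p = 0.985, exact permutation within siRNA). Insertions were found in 52.4% ± 3.0 of joins in BRCA1del and 51.5% ± 6.3 in BRCA1flox, and the BGH segment held 14.2% ± 3.0 and 13.4% ± 4.3 (adjusted p = 0.846 for each, exact permutation).

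Microhomology and bait-end loss did not pass either, and both depended on run D. Microhomology of 2 bp or more was 4.03 points lower in BRCA1del, at 17.7% ± 3.5 against 21.7% ± 9.1 in BRCA1flox (adjusted p = 0.481, exact permutation), and lower with 3 of 4 siRNAs. With siLuciferase it was 14.6%, 21.6% and 19.2% in BRCA1del, against 15.2% and 43.8% in BRCA1flox. The last value is the library of 32 joins, and without run D the genotype difference was -0.58 points. Bait-end loss of 10 bp or more was 2.79 points higher in BRCA1del, at 35.1% ± 4.5 against 32.3% ± 3.8 in BRCA1flox (adjusted p = 0.481, exact permutation). Without run D it was 0.795 points, and without run B 3.83 points. With siBLM it was 33.3%, 33.0% and 45.5% in BRCA1del, against 27.9% and 31.2% in BRCA1flox, with no overlap, and with siBRCA1 the order was the other way, at 32.4% ± 5.3 and 34.5% ± 4.6.

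Each siRNA was compared with siLuciferase over the Tus libraries, within each genotype, and none of the 15 differences passed. The lowest p was for siFANCM and bait-end loss. Loss of 10 bp or more was found in 34.5%, 30.6% and 37.3% of joins with siFANCM in BRCA1del, against 35.8%, 37.9% and 35.6% with siLuciferase, which overlap. In BRCA1flox it was 27.8%, 32.4% and 28.3% with siFANCM, against 33.6% and 37.5% with siLuciferase, which do not. The difference was -4.19 points (unadjusted p = 0.045, adjusted p = 0.675, exact permutation within genotype). At a minimum loss of 30 bp it was 0.38 points.

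In the other measures, microhomology was 16.2% ± 1.8 with siFANCM (n = 6), 18.1% ± 4.7 with siBRCA1 and 20.6% ± 3.2 with siBLM, against 24% ± 12 with siLuciferase (n = 5 each), where 1 library holds 43.8%. The adjusted p was 0.788 for siFANCM, 0.917 for siBRCA1 and 0.981 for siBLM by exact permutation. The rightward share was 41.0% ± 4.3 with siBLM, 47.2% ± 4.1 with siBRCA1 and 44.0% ± 3.9 with siFANCM, against 45.1% ± 5.2 with siLuciferase (adjusted p = 0.917 for each, exact permutation). In BRCA1del the siBLM libraries (37.9% to 44.6%) and the siFANCM libraries (41.2% to 45%) lay below those with siLuciferase (45.7% to 47.9%), while in BRCA1flox each siRNA overlapped siLuciferase. Over both genotypes siBLM minus siLuciferase was -4.07 points, and without run D it was 2.98 points. For siFANCM these values were -1.08 and 2.44 points. The BGH segment held 16.2% ± 3.9 of joins with siBRCA1, 12.3% ± 2.9 with siBLM and 13.3% ± 2.2 with siFANCM, against 13.3% ± 4.8 with siLuciferase. Insertions were found in 54.4% ± 5.1 of joins with siFANCM, 52.6% ± 3.6 with siBRCA1 and 50.4% ± 2.7 with siBLM, against 50.4% ± 6.2 with siLuciferase.

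Whether the siRNA differences themselves differed between BRCA1del and BRCA1flox was tested for all 15. None passed, the lowest adjusted p was 0.929 by exact permutation, and 0 had an unadjusted p under 0.05.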

How the data were processed

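For each group the authors deposited a table of joins, giving as other values the junction position, strand and alignment start and end beside each read, all on a single reference. The submitters' processing notes name Bowtie2 and mm9. Filters, duplicate removal and the origin of that reference are not given in the sources used here. Bait and cassette sequences were rebuilt from the reads. Bait and prey parts of each read were placed by exact seeds and extended, and microhomology, insertions and bait-end loss were called for 4233 of 4270 polyA-region joins (99.1%). Tested on simulated joins of the region, the caller gave the exact microhomology in 99.9% and the exact insertion in 100% of 2000 joins without read errors, and in 99.1% and 97.4% of 2000 with errors at 0.3% of bases. Blocks are the stretches covered by more than 25% of the highest number of joins over any position.

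The tables carry no replicate number. Each sequencing run within a group, read from the read names, was taken as 1 library, giving 25 libraries for 25 samples in 10 groups, and nothing ties a run to a labelled replicate. Counts of joins were not used as frequencies, since joins outside the cassette were not analysed here. Shares were compared by exact permutation of libraries within siRNA or genotype and by a sign-flip permutation test of 100000 resamples, two-sided, with Benjamini-Hochberg adjustment within each family and a threshold of 0.05. A share over pooled joins has a Wilson 95% interval, and a count of 0 allows up to 3 counts. The positions named are the 5 most used on each strand and the most used of each group. The region, its segments, the measures and this rule were chosen with earlier results of these data known. Alternatives were leaving out each run, shared runs only, each position, strand and bait end once per library, other minimum lengths and 1 strand. Leaving out edge joins and extending the prey through the flank were added after seeing the data. Python 3.11.15, pandas 2.3.3, numpy 2.4.6, scipy 1.17.1 and matplotlib 3.10.9 were used. Sequences other than the bait are not printed.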

Additional observations from a re-analysis of the deposited data

How the results depend on the processing

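Of 294 alternative values for the 39 differences tested, 239 kept their direction and their side of the threshold and 55 changed direction, each of a difference that had not passed. The 4 differences between the polyA region and the cassette body passed under every alternative run, and leaving out a run gave 23 to 27.7 points for the rightward share, 34.0 to 34.6 for insertions, -27.2 to -23.3 for microhomology and -17.6 to -16.1 for bait-end loss. Their insertion share was 6.75 points without edge joins and 5.29 with the prey extended through the flank, and their microhomology share was -10.3 points at a minimum of 4 bp. BRCA1del minus BRCA1flox without run D was -0.575 points for microhomology and 0.795 for bait-end loss. No paired analysis was possible because the tables carry no replicate number, so pairing by replicate was replaced by differences within the runs that 2 groups share, given below.

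Leaving out each run in turn, and in points, BRCA1del minus BRCA1flox ran from -0.905 to 1.19 for the rightward share, -2.51 to 3.87 for the BGH segment and -0.749 to 4.01 for insertions. siBLM minus siLuciferase ran from -10.1 to 2.98 for the rightward share, -2.23 to 0.586 for the BGH segment, -4.01 to 4.49 for insertions and -8.26 to 2.09 for microhomology. siBRCA1 minus siLuciferase ran from -1.86 to 7.14 for the BGH segment. siFANCM minus siLuciferase ran from -2.74 to 2.44 for the rightward share, -2.0 to 2.25 for the BGH segment, -2.69 to 8.73 for insertions and -14.4 to 0.37 for microhomology. Tus minus EV ran from -0.478 to 1.77 for the rightward share, -3.86 to 1.78 for the BGH segment and -2.98 to 1.26 for insertions. I-SceI minus EV ran from -2.51 to 2.35 for the BGH segment, -6.53 to 3.39 for insertions and -0.128 to 1.62 for microhomology. Tus minus I-SceI ran from -3.91 to 7.79 for insertions and -2.80 to 1.63 for bait-end loss.

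Within shared runs, BRCA1del minus BRCA1flox was -0.167 for the rightward share and -0.521 for insertions, siFANCM minus siLuciferase -0.172 for the BGH segment, and Tus minus I-SceI -1.41 for insertions. With each position, strand and bait end once per library, BRCA1del minus BRCA1flox was -0.724 for the rightward share and -0.350 for insertions, Tus minus EV -3.07 for the rightward share and 0.912 for insertions, I-SceI minus EV 0.274 for the BGH segment and Tus minus I-SceI -0.397 for the rightward share. With microhomology from 1 bp, Tus minus EV was 2.15. With microhomology from 4 bp, siBLM, siBRCA1 and siFANCM minus siLuciferase were 3.11, 2.25 and 0.383, Tus minus EV 0.180 and Tus minus I-SceI 0.0425. With bait-end loss from 30 bp, siFANCM minus siLuciferase was 0.379 and Tus minus I-SceI 1.49. On the minus strand only, the BGH segment gave 2.08 for siBLM minus siLuciferase and 0.661 for I-SceI minus EV. With insertions from 4 bases, Tus minus EV was 5.28 and I-SceI minus EV 0.864.

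Without edge joins, the rightward share was -0.647 for BRCA1del minus BRCA1flox, -4.82 for Tus minus EV and -2.17 for Tus minus I-SceI, insertions were -1.32 for siBRCA1 and -0.958 for siFANCM minus siLuciferase, and the BGH segment was 0.0411 for I-SceI minus EV. With the prey extended through the flank, insertions were -2.05 for BRCA1del minus BRCA1flox, -2.92 for siBRCA1 and -2.79 for siFANCM minus siLuciferase. The cause of these changes was not tested. Depth limits the library shares most in run D, whose smallest library held 32 joins of the region.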
